A study of Mus musculus with 31 samples.

Results

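The microRNAs miR-99a, miR-99b and miR-100, and miR-125a and miR-125b, were followed through the hippocampus of exercised, corticosterone-treated and water-drinking mice with or without the serotonin transporter. Their 10 mature arms, among them mmu-miR-99a-5p, mmu-miR-99b-5p, mmu-miR-100-5p, mmu-miR-125a-5p and mmu-miR-125b-5p (mmu, mouse, is left out below), were taken by name from the deposited count tables, which hold 1966 mature microRNAs, of which 1575 had a count in at least 1 library. All 10 arms had counts in every library and passed the filter on low counts in every comparison. The tissue was the right hippocampus of C57Bl/6 J mice, and 1 small RNA library was made per labelled biological replicate, 31 in all. The groups were wild type (WT) mice after 4 weeks of exercise (WT-exercise, n = 5), WT mice given corticosterone for 4 weeks (WT-corticosterone, n = 6) and WT mice on water (WT-water, n = 7). The same conditions were applied to mice labelled 5-HTT KO, knockouts of the serotonin transporter: KO-exercise (n = 5), KO-corticosterone (n = 2) and KO-water (n = 6). Corticosterone is the main glucocorticoid stress hormone of rodents. The sources used here give no age, sex, dose or kind of deletion.

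A microRNA hairpin gives a 5p and a 3p arm, of which usually 1 is kept in the silencing complex, and targets are recognised mainly through the seed, bases 2 to 8 of the mature strand. The miR-99/100 family is known for targeting the mTOR kinase and the insulin-like growth factor receptor. The miR-125 family, the vertebrate relative of the worm lin-4 microRNA, is known for its roles in neuronal differentiation and at synapses, and miR-125b is abundant in neurons and astrocytes. Members of both families lie in 3 clusters, each with a let-7 gene between a miR-99/100 gene and a miR-125 gene.

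The 5p arms below carry most of the counts, and capitals mark the seed. Sequences are those of RefSeq (GRCm38.p6).
mmu-miR-99a-5p: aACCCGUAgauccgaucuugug
mmu-miR-100-5p: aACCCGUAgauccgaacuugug
mmu-miR-99b-5p: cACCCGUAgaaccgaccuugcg
mmu-miR-125a-5p: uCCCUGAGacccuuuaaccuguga
mmu-miR-125b-5p: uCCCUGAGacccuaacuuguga
The 3 miR-99/100 strands share 1 seed and the 2 miR-125 strands another. Counting from the 5′ end of miR-99a-5p, miR-100-5p differs from it only by U16A, and miR-99b-5p differs by A1C, U11A, U16C and U21C. The first 13 bases of miR-125b-5p and miR-125a-5p are identical. A read cut short of base 16 cannot be told between miR-99a-5p and miR-100-5p, and no source used here says how the deposited counting treated such reads.

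The mature miR-125b-5p strand is made from 2 genes and is identical from both, so its counts cannot be split by locus. The 3p arms differ between these genes and are shown because they tell the loci apart.
mmu-miR-125b-1-3p: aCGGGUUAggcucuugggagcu
mmu-miR-125b-2-3p: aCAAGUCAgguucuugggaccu
From the 5′ end of miR-125b-1-3p, the strand of the other gene differs by G3A, G4A, U7C, C11U and G20C. In the GENCODE annotation of GRCm38 all 6 genes lie on the plus strand. Mir99a (chr16:77598936-77599000) and Mir125b-2 (chr16:77646273-77646343) are intronic in the long noncoding RNA gene Mir99ahg, with Mirlet7c-1 between them. Mir100 (chr9:41531425-41531504) and Mir125b-1 (chr9:41581926-41582002) are intronic in the noncoding gene 3110039I08Rik, with Mirlet7a-2 between them. Mir99b (chr17:17830188-17830257) is intronic in the protein-coding gene Spaca6, and Mir125a (chr17:17830812-17830879) overlaps one of its annotated exons. The clusters span 47.4 kb on chromosome 16, 50.6 kb on chromosome 9 and 0.69 kb on chromosome 17. The Mir99a hairpin is printed with both mature arms in capitals, since its arms moved apart between the sets of KO-water libraries described below.
Mir99a: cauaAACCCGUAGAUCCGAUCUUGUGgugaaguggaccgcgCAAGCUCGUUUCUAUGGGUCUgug

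Total counts on mature microRNAs ranged from 1011285 to 4052174 per library, with 828 to 1034 microRNAs detected. Neuronal miR-124-3p was abundant in every group, with group medians of 228655 to 254922 counts per 1000000 (CPM). The transporter mRNA is not measured by these libraries, so the genotype labels were not checked. Sample codes start with G or H, a letter that no source used here explains: 20 libraries carry G and 11 carry H, and both KO-corticosterone libraries carry H. The 3 KO-water libraries that are columns of the deposited genotype table (KO-water 3, 4 and 6) stood apart from the other 3 (KO-water 1, 2 and 5), with 54.5% of 532 microRNAs called between them. All libraries were therefore scored on the main axis of variation within groups, which held 38.8% of that variation over 627 microRNAs. KO-water 3, 4 and 6 scored 11.9, 17.6 and 15.9, while KO-water 1, 2 and 5 scored −8.61, −8.81 and −8.06. These libraries helped to define the axis, so their separation on it is in part built in. WT-water libraries scored from −10.6 to −8.48, and WT-exercise libraries from −11.8 to 14.5. MiR-125a-3p and miR-125a-5p ranked 92nd and 96th of 627 microRNAs by their weight on this axis, and miR-99a-5p and miR-100-5p ranked 527th and 447th.

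The 10 arms together held 5.53% ± 1.40 of all microRNA counts (SD, n = 31), from 3.26% to 8.23% per library. Levels are given as CPM scaled by trimmed mean of M values (TMM). MiR-125b-5p averaged 33309 CPM, ranked 8th of all 1966 microRNAs and exceeded miR-125a-5p in 31 of 31 libraries. In WT-water 6 alone miR-99a-5p reached its level (16960 CPM, against 16956 CPM of miR-125b-5p). MiR-125a-5p followed at 10341 CPM and miR-99a-5p at 8606 CPM, and these neighbours were in that order in only 21 of 31 libraries. MiR-100-5p averaged 1672 CPM and miR-99b-5p 1060 CPM, in that order in 26 of 31 libraries. The 3p arms were far lower. MiR-125b-2-3p averaged 174.3 CPM and miR-99a-3p 152 CPM, in that order in 20 of 31 libraries. MiR-125a-3p averaged 44.0 CPM and miR-125b-1-3p 42.7 CPM, in that order in only 14 of 31 libraries, and miR-99b-3p was lowest at 32.4 CPM. The smallest count of any arm in any library was 30, for miR-99b-3p. All strands have 21 to 24 bases, and these levels are as counted, with differences in capture between sequences not corrected.

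The arms differed in their spread over the 31 libraries. MiR-99a-5p had a coefficient of variation of 59.8% and miR-100-5p of 46.7%, against 29.4% for miR-125b-5p and 13.3% for miR-125b-2-3p. MiR-99a-5p ranged from 2453 CPM in WT-corticosterone 6 to 23299 CPM in KO-water 4. Its ratio to miR-100-5p, made from another chromosome, stayed between 2.81 and 6.46 over the same libraries.

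**Figure D1:**
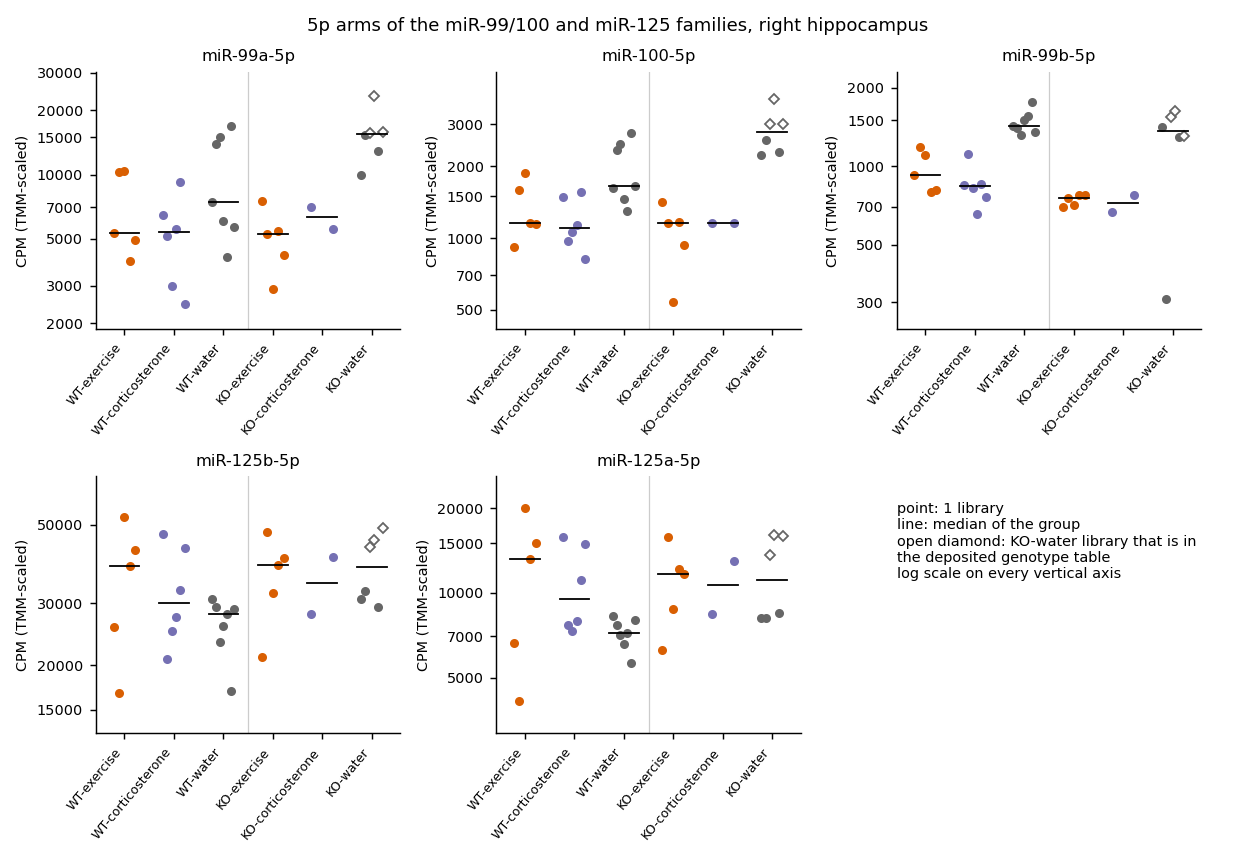
CPM of the 5 abundant 5p arms in each library (points, log scale) by group, with the group median as a line; open diamonds are KO-water libraries 3, 4 and 6. MiR-99b-5p lay at 653 to 1185 CPM in all 18 treated libraries and at 1291 CPM or more in every water library except KO-water 2 at 309 CPM. The share of all microRNAs that part treated from water libraries in this way was not counted.

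Likeness of pattern was measured as the root mean square difference of centred log2 CPM over 31 libraries, among 248 microRNAs with a mean of at least 100 CPM. The smaller the value, the more alike the patterns. The nearest pattern to miR-99a-5p was miR-100-5p and the reverse also held, at 0.32 log2 units. MiR-103-3p and miR-181c-3p were the next for both. The nearest to miR-125a-5p was miR-125b-5p and the reverse also held, at 0.18, with miR-149-5p next for both. For miR-99b-5p the nearest were not of its family: miR-7a-2-3p (0.26), miR-140-5p (0.37) and miR-7a-1-3p (0.42) came first, while miR-100-5p ranked 60th and miR-99a-5p 173rd. MiR-125a-5p, whose gene lies in the same 0.69 kb cluster, ranked 182nd for miR-99b-5p. KO-water 2, in which miR-99b-5p was low, supplied 52.5% of the squared distance between miR-99b-5p and miR-100-5p. Without KO-water 2, an alternative chosen after seeing the data, miR-7a-2-3p was still nearest to miR-99b-5p (0.20), followed by miR-103-3p (0.26) and miR-181a-1-3p (0.27), with miR-100-5p 33rd (0.42), miR-99a-5p 118th and miR-125a-5p 191st. These distances share library depth and group structure and are given as description only.

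**Figure D2:**
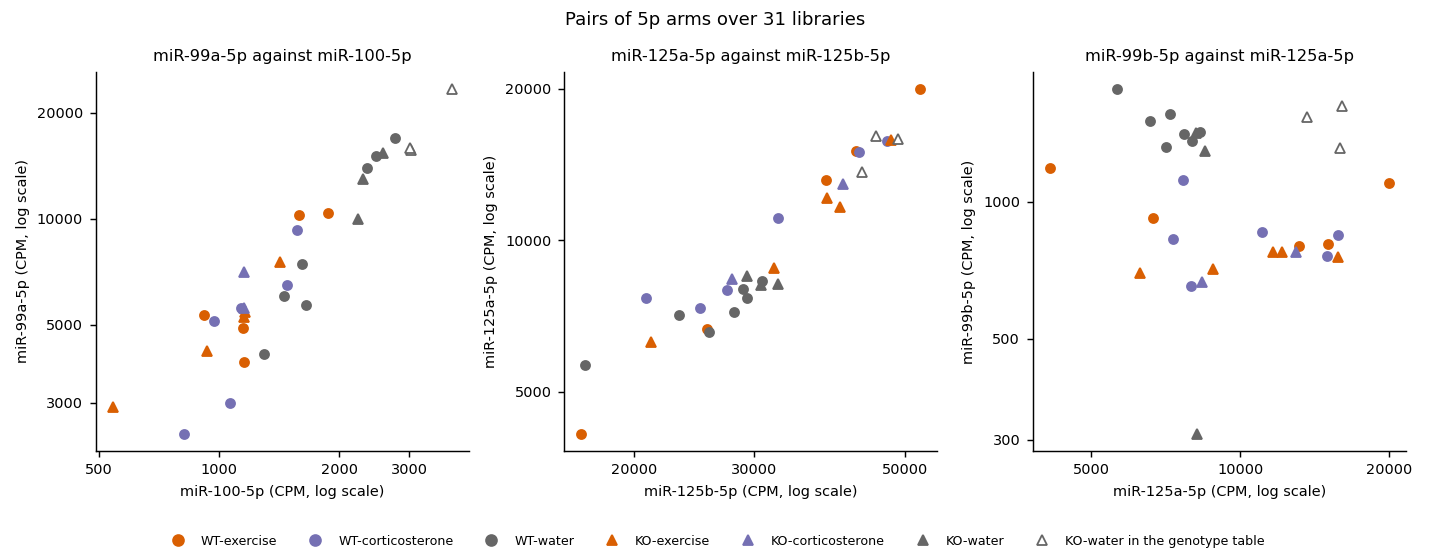
Each point is 1 of 31 libraries, with CPM of a pair of 5p arms on log axes; colour gives the treatment, shape the genotype, and open triangles are KO-water 3, 4 and 6. MiR-99a-5p and miR-100-5p fell along 1 line, as did miR-125a-5p and miR-125b-5p, whereas miR-99b-5p and miR-125a-5p of the same cluster did not.

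In exercised WT mice, miR-99b-5p was lower and miR-125a-3p higher than in WT mice on water. MiR-99b-5p had 922, 1185, 1101, 798 and 809 CPM in WT-exercise 1 to 5, against 1322 to 1768 CPM in WT-water (median 1427). Every exercised library lay below every water library. The log2 fold change was −0.60 ± 0.13 (SE; adjusted p = 0.0053, edgeR quasi-likelihood test with Benjamini-Hochberg adjustment over all 553 microRNAs tested). Of these microRNAs, 4.52% likewise lay lower without overlap.

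MiR-125a-3p, the rarer arm of its hairpin, had 37.2, 20.1, 87.4, 64.3 and 78.1 CPM in WT-exercise 1 to 5, against 17.8 to 32.7 CPM in WT-water (median 28.5). WT-exercise 2 lay within the water range and the other 4 above it. The log2 fold change was 1.08 ± 0.30 (edgeR adjusted p = 0.017), and the call was lost without WT-exercise 3 (0.92 ± 0.31, edgeR adjusted p = 0.053) or WT-exercise 5 (0.93 ± 0.32, edgeR adjusted p = 0.059). These were the 2 of 10 arms called, against 32.5% of all microRNAs tested (19.9% higher and 12.7% lower). The median log2 fold change was −0.20 over the 10 arms and 0.04 over all microRNAs tested.

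MiR-125a-5p had 6657, 4125, 19954, 13171 and 15013 CPM in WT-exercise 1 to 5, against 5648 to 8304 CPM in WT-water (median 7200). The exercised libraries lay on both sides of the water range, with a log2 fold change of 0.75 ± 0.30 (edgeR adjusted p = 0.067). Without WT-exercise 1 it was 0.81 ± 0.29 (edgeR adjusted p = 0.042). Without WT-exercise 2 it was 0.98 ± 0.22 (edgeR adjusted p = 0.0031), and miR-125b-5p was then also called (0.66 ± 0.20, edgeR adjusted p = 0.014). WT-exercise 1 and 2 scored −8.45 and −11.8 on the main axis, near WT-water, and the other 3 scored 7.64 to 14.5.

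With the axis score as a covariate, an alternative chosen after seeing the data, miR-125a-3p was at 0.08 ± 0.25 (edgeR adjusted p = 0.88) and miR-125a-5p at −0.39 ± 0.15 (edgeR adjusted p = 0.15). MiR-99b-5p remained lower at −0.54 ± 0.14 (edgeR adjusted p = 0.035). The axis was computed from these same libraries with the arms included, so an arm's shift with the covariate depends in part on its weight. WT-water scores were all low and those of treated WT libraries mostly higher, so in WT the covariate overlaps with treatment. The summed level of the 2 oligodendrocyte microRNAs miR-219a-5p and miR-338-3p was 1045 to 6042 CPM in WT-exercise and 4799 to 6259 CPM in WT-water. That of 4 microglia and immune cell microRNAs was 2493 to 10789 CPM in WT-exercise and 2290 to 3281 CPM in WT-water, with all markers detected in each group. That of 3 red blood cell microRNAs was 454 to 1862 CPM in WT-exercise and 1154 to 2415 CPM in WT-water. In bulk tissue fewer cells of a type and less RNA per cell cannot be told apart, and the part of these markers in the changes was not tested.

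**Figure D3:**
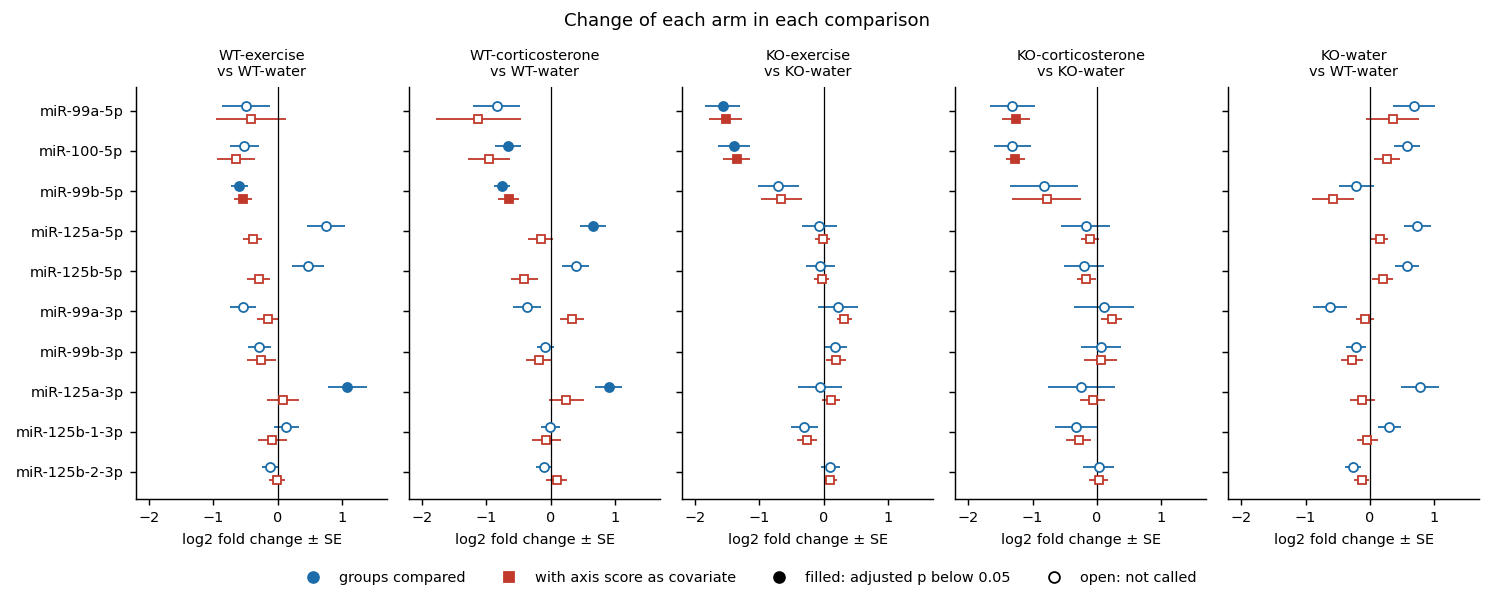
Log2 fold change ± SE of the 10 arms in 5 comparisons, from the groups compared (blue circles) and with the axis score as a covariate (red squares); filled symbols are called at an adjusted p below 0.05. The miR-125 changes of WT mice lay near or across 0 with the covariate, while miR-99b-5p in WT and miR-99a-5p and miR-100-5p in KO kept their direction and size. The axis was computed from the same data with these arms included and overlaps with treatment in WT, so these shifts are description only.

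Within code letters the same WT comparison gave different calls. MiR-99b-5p was at −0.87 ± 0.18 within H (edgeR adjusted p = 0.015) and −0.40 ± 0.16 within G (edgeR adjusted p = 0.25). MiR-125a-3p was at 1.25 ± 0.24 within H (edgeR adjusted p = 0.014) and 0.91 ± 0.42 within G (edgeR adjusted p = 0.29). MiR-99a-3p, at 133.9 ± 45.0 CPM in WT-exercise and 198 ± 33.3 CPM in WT-water (SD, n = 5 and 7), did not pass (log2 fold change −0.54 ± 0.20, edgeR adjusted p = 0.051). It passed without WT-exercise 1 (−0.69 ± 0.22, edgeR adjusted p = 0.025), without WT-exercise 2 (−0.67 ± 0.20, edgeR adjusted p = 0.012) or without WT-water 1 (−0.59 ± 0.21, edgeR adjusted p = 0.048). MiR-100-5p (−0.52 ± 0.23) and miR-99a-5p (−0.49 ± 0.37) did not pass either, nor did the other 3p arms.

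After corticosterone in WT mice, 4 of 10 arms passed the test, against 41.9% of 547 microRNAs tested (24.9% higher and 17% lower). MiR-99b-5p and miR-100-5p fell, and both arms of the miR-125a hairpin rose. MiR-99b-5p ranged from 653 to 1115 CPM in WT-corticosterone (median 836), against 1322 to 1768 CPM in WT-water (median 1427). The groups did not overlap, as for 5.67% of microRNAs that lay lower, and the log2 fold change was −0.75 ± 0.12 (edgeR adjusted p = 0.00022). It was −0.77 ± 0.13 within code letter G (edgeR adjusted p = 0.0023) and −0.66 ± 0.17 with the axis score (edgeR adjusted p = 0.029).

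MiR-100-5p ranged from 819 to 1565 CPM in WT-corticosterone (median 1101), against 1301 to 2758 CPM in WT-water (median 1648), with overlap. Its log2 fold change was −0.67 ± 0.20 (edgeR adjusted p = 0.015). It was −0.58 ± 0.21 within letter G (edgeR adjusted p = 0.063) and −0.96 ± 0.33 with the axis score (edgeR adjusted p = 0.10), neither of which passed. MiR-99a-5p ranged from 2453 to 9255 CPM in WT-corticosterone and from 4116 to 16960 CPM in WT-water, and did not pass (−0.84 ± 0.37, edgeR adjusted p = 0.076). Without WT-corticosterone 5 it was −1.11 ± 0.36 (edgeR adjusted p = 0.029), and without WT-water 5 it was −1.02 ± 0.35 (edgeR adjusted p = 0.035). It also passed with DESeq2 (−0.89 ± 0.36, adjusted p = 0.032) and in an edgeR fit of all groups together (−0.89 ± 0.33, adjusted p = 0.044). MiR-99a-3p was at −0.37 ± 0.21 (edgeR adjusted p = 0.17), and at −0.63 ± 0.19 without WT-corticosterone 2 (edgeR adjusted p = 0.010).

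MiR-125a-5p ranged from 7329 to 15739 CPM in WT-corticosterone (median 9512), against 5648 to 8304 CPM in WT-water (median 7200), with a log2 fold change of 0.65 ± 0.20 (edgeR adjusted p = 0.019). WT-corticosterone 1, 5 and 6 lay above every water library and the other 3 within their range. Without WT-corticosterone 1 or 6 the call was lost (0.48 ± 0.19 both times, edgeR adjusted p = 0.058 and 0.060). MiR-125a-3p ranged from 27.7 to 64.4 CPM in WT-corticosterone, against 17.8 to 32.7 CPM in WT-water, with a log2 fold change of 0.90 ± 0.21 (edgeR adjusted p = 0.0033). All treated libraries but WT-corticosterone 2 lay above every water library. With the axis score miR-125a-5p was at −0.15 ± 0.19 (edgeR adjusted p = 0.70) and miR-125a-3p at 0.24 ± 0.27 (edgeR adjusted p = 0.66). The oligodendrocyte pair was at 1123 to 5396 CPM in WT-corticosterone and at 4799 to 6259 CPM in WT-water. The microglia and immune cell microRNAs were at 2568 to 8170 CPM in WT-corticosterone (median 4994) and at 2290 to 3281 CPM in WT-water (median 2429). The red blood cell microRNAs were at 477 to 1197 CPM in WT-corticosterone (median 675) and at 1154 to 2415 CPM in WT-water (median 1473). The part of these markers in the changes was not tested. The median log2 fold change was −0.09 over the 10 arms and 0.06 over all microRNAs tested.

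Between WT-exercise and WT-corticosterone no arm was called, with 0 of 521 microRNAs called by edgeR (0%) and 20 at an unadjusted p below 0.05, none of them among the 10. For miR-99b-5p the difference was 0.18 ± 0.17 on the log2 scale, and for miR-125a-5p 0.11 ± 0.37. Both treatments were set against the same WT-water libraries, so their changes from water are not independent of each other.

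In exercised KO mice, miR-99a-5p and miR-100-5p fell. MiR-99a-5p had 7507, 5250, 2913, 5417 and 4202 CPM in KO-exercise 1 to 5, against 9956 to 23299 CPM in KO-water (median 15514). MiR-100-5p had 1425, 1157, 542, 1166 and 933 CPM in KO-exercise 1 to 5, against 2228 to 3829 CPM in KO-water (median 2796). For both, every exercised library lay below every water library, and KO-exercise 3 was the lowest. Of 523 microRNAs, 2.68% likewise lay lower without overlap.

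The log2 fold change was −1.57 ± 0.27 for miR-99a-5p and −1.39 ± 0.24 for miR-100-5p (edgeR adjusted p = 0.0071 for each). These were 2 of 10 arms called, both lower, against 4.02% of all microRNAs called and 0.956% called lower. The median log2 fold change was −0.06 over the 10 arms and −0.01 over all microRNAs tested. Every fit with 1 library left out kept both calls, and both arms were called against either set of KO-water libraries, with the larger changes against KO-water 3, 4 and 6. Against KO-water 3, 4 and 6 (32.8% of all microRNAs called) the changes were −1.91 ± 0.27 and −1.71 ± 0.26 (edgeR adjusted p = 0.00073 and 0.00096). Against KO-water 1, 2 and 5 (21.7% of all called) they were −1.33 ± 0.26 and −1.18 ± 0.25 (edgeR adjusted p = 0.0066 and 0.0092). With the axis score (23.1% of all called) they were −1.52 ± 0.25 and −1.35 ± 0.21 (edgeR adjusted p = 0.0013 and 0.00068). Within code letter G they were −1.58 ± 0.41 and −1.45 ± 0.38 and within H −1.64 ± 0.41 and −1.40 ± 0.39, with edgeR adjusted p of 0.25 for each in G and of 0.71 and 0.95 in H.

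MiR-99b-5p had 698, 758, 710, 774 and 774 CPM in KO-exercise 1 to 5, against 1291 to 1623 CPM in KO-water other than KO-water 2, which had 309 CPM. The groups overlapped through that library alone, and the log2 fold change was −0.71 ± 0.32 (edgeR adjusted p = 0.30). Without KO-water 2, an alternative chosen after seeing the data, it was −0.91 ± 0.12 (edgeR adjusted p = 0.0012). The miR-99b-3p of KO-water 2 was at 27.7 CPM, within the range of 24.1 to 38.8 CPM of all KO-water libraries. The miR-125 arms overlapped between the groups. MiR-125a-5p averaged 10930 ± 3598 CPM in KO-exercise and 11744 ± 3900 CPM in KO-water (SD, n = 5 and 6), a log2 fold change of −0.07 ± 0.27 (edgeR adjusted p = 0.97).

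The comparison of miR-125 arms in exercised KO mice depended on which KO-water libraries were used. MiR-125a-3p was at −0.69 ± 0.23 against KO-water 3, 4 and 6 (edgeR adjusted p = 0.041) and at 0.70 ± 0.24 against KO-water 1, 2 and 5 (edgeR adjusted p = 0.061). MiR-99a-3p likewise was at 0.92 ± 0.20 against KO-water 3, 4 and 6 (edgeR adjusted p = 0.0055) and at −0.34 ± 0.18 against KO-water 1, 2 and 5 (edgeR adjusted p = 0.20). The oligodendrocyte pair was at 1227 to 3562 CPM in KO-exercise, at 857 to 1204 CPM in KO-water 3, 4 and 6, and at 3942 to 5102 CPM in KO-water 1, 2 and 5. In KO-exercise the microglia and immune cell microRNAs were at 3583 to 7104 CPM. The 4 vessel microRNAs were there at 14312 to 19927 CPM and the red blood cell microRNAs at 388 to 920 CPM. Their levels in the KO-water sets are given below. The part of these markers in the changes was not tested.

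After corticosterone in KO mice, with 2 libraries, no arm passed the edgeR test, against 0.521% of 576 microRNAs (40 had an unadjusted p below 0.05, 2 of them among the arms, and DESeq2 called 2 arms and 1.22% of 575 microRNAs with an adjusted p). MiR-99a-5p had 7071 and 5558 CPM in KO-corticosterone, against 9956 to 23299 CPM in KO-water, and miR-100-5p had 1156 and 1158 CPM in KO-corticosterone, against 2228 to 3829 CPM in KO-water. Neither overlapped, both lying lower, as did 4.51% of all microRNAs. The log2 fold changes were −1.31 ± 0.35 for miR-99a-5p (edgeR adjusted p = 0.35) and −1.31 ± 0.29 for miR-100-5p (edgeR adjusted p = 0.18). With the axis score (5.03% of all microRNAs called) both were called, at −1.25 ± 0.22 (edgeR adjusted p = 0.0047) and −1.27 ± 0.15 (edgeR adjusted p = 0.00024). The axis was computed from these same libraries, KO-water included, so these calls are description only. MiR-99b-5p had 665 and 777 CPM in KO-corticosterone, below every KO-water library except KO-water 2. All KO-corticosterone libraries carry the letter H, and within H miR-100-5p was at −1.27 ± 0.39 (edgeR adjusted p = 1.00).

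Whether the fall of miR-99a-5p and miR-100-5p differed between genotypes was tested as an interaction of exercise and genotype. The change in KO minus the change in WT was −1.18 ± 0.49 for miR-99a-5p (edgeR adjusted p = 0.22) and −0.97 ± 0.34 for miR-100-5p (edgeR adjusted p = 0.19). No arm passed, and none of 571 microRNAs did (0%), with 101 at an unadjusted p below 0.05. For miR-99b-5p the difference was −0.21 ± 0.35, and for miR-125a-3p −1.21 ± 0.47 (edgeR adjusted p = 0.21). The corticosterone interaction likewise called none of 630 microRNAs by edgeR (0%), with 65 at an unadjusted p below 0.05, and was −0.38 ± 0.59 for miR-99a-5p and −0.55 ± 0.34 for miR-100-5p. With only KO-water 3, 4 and 6 as the KO-water group, 6 arms passed in the exercise interaction, against 42.3% of all microRNAs, and 3 in the corticosterone interaction, against 34% of all microRNAs.

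KO-exercise set directly against WT-exercise gave no call among 517 microRNAs by edgeR (0%), with 5 at an unadjusted p below 0.05. MiR-99b-5p averaged 743 ± 36.1 CPM in KO-exercise and 963 ± 173.8 CPM in WT-exercise (SD, n = 5 each), and the groups did not overlap, as for the 0.58% of microRNAs that lay lower. Its log2 fold change was −0.36 ± 0.15 (unadjusted p = 0.039, edgeR adjusted p = 1.00). MiR-99a-5p was at −0.44 ± 0.32 and miR-100-5p at −0.34 ± 0.27.

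**Figure D4:**
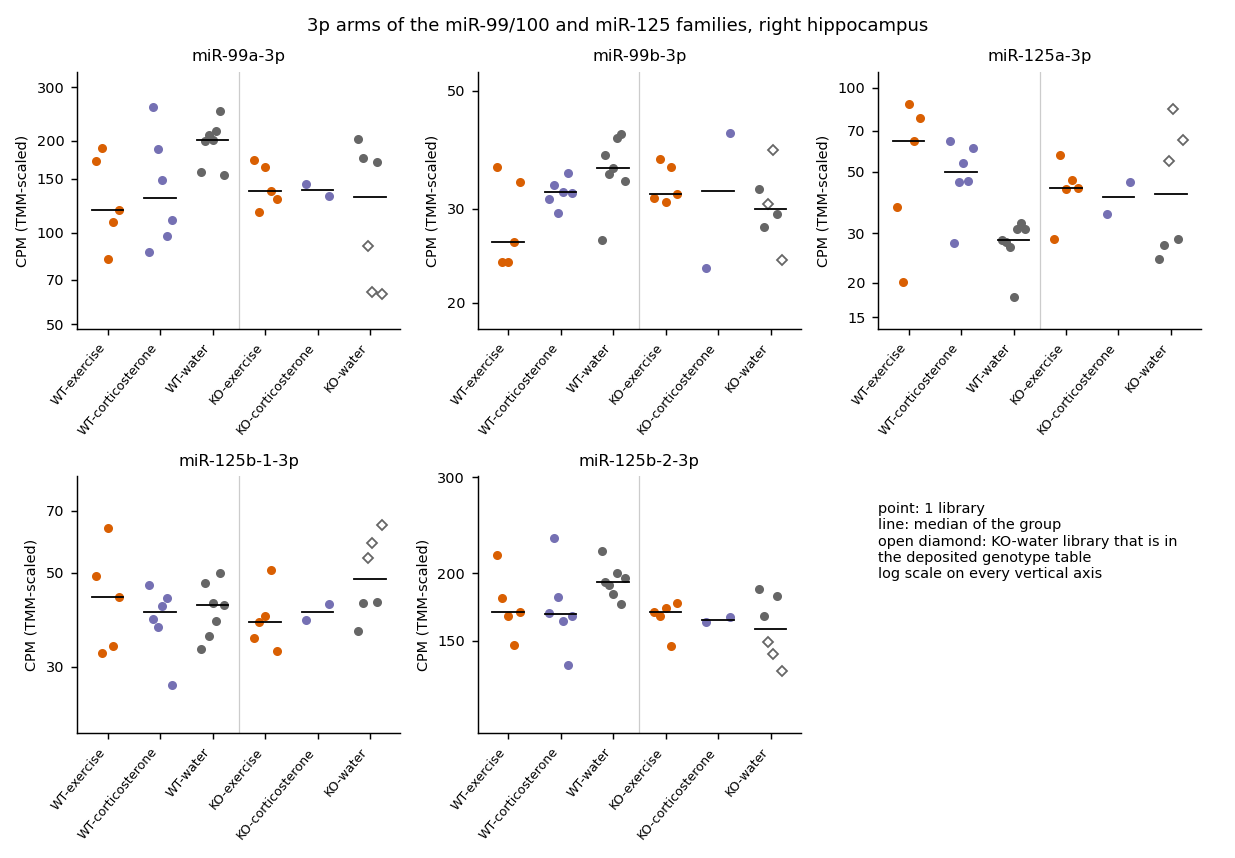
CPM of the 5 rarer 3p arms in each library (points, log scale) by group, with the group median as a line; open diamonds are KO-water libraries 3, 4 and 6. Those libraries had 63.0 to 90.4 CPM of miR-99a-3p, below the other KO-water libraries at 170 to 203 CPM, and 54.6 to 83.6 CPM of miR-125a-3p, above the others at 24.4 to 28.7 CPM.

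On water, no arm passed the edgeR test between KO and WT mice when all 6 KO-water libraries were used. Among 545 microRNAs, 0 were called (0%) and 179 had an unadjusted p below 0.05 by edgeR, and DESeq2 called 4 of the 10 arms and 21.1% of all microRNAs. MiR-125a-5p ranged from 8146 to 16082 CPM in KO-water (median 11073), against 5648 to 8304 CPM in WT-water (median 7200). KO-water 1 and 2 lay within the WT-water range and the other 4 above it, with a log2 fold change of 0.73 ± 0.21 (edgeR adjusted p = 0.060). MiR-125b-5p was at 0.57 ± 0.19 (edgeR adjusted p = 0.072), miR-100-5p at 0.57 ± 0.20 (edgeR adjusted p = 0.081) and miR-99a-5p at 0.68 ± 0.32 (edgeR adjusted p = 0.15).

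The set of KO-water libraries decided these values. With KO-water 3, 4 and 6 alone, 7 of 10 arms passed, against 60.9% of 581 microRNAs: miR-125a-5p was at 1.26 ± 0.12 (edgeR adjusted p = 1.1e-06), miR-125a-3p at 1.45 ± 0.19 and miR-99a-3p at −1.27 ± 0.18. With KO-water 1, 2 and 5 alone, none passed, and the same arms were at 0.18 ± 0.13, −0.07 ± 0.20 and −0.12 ± 0.14. Leaving out KO-water 1 gave 5 called arms and 21.4% of all microRNAs called, leaving out KO-water 2 gave 4 arms and 19.5%, and leaving out KO-water 5 gave 4 arms and 29.2%.

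Set against each other, KO-water 3, 4 and 6 and KO-water 1, 2 and 5 differed in 7 of 10 arms, 6 higher and 1 lower in the first set, against 28.9% higher and 25.6% lower among all 532 microRNAs. MiR-125a-5p had 13641, 16082 and 15919 CPM in KO-water 3, 4 and 6, and 8146, 8172 and 8505 CPM in KO-water 1, 2 and 5 (log2 fold change 0.95 ± 0.14, edgeR adjusted p = 0.00012). MiR-99a-3p had 90.4, 63.8 and 63.0 CPM in KO-water 3, 4 and 6, and 203, 175 and 170 CPM in KO-water 1, 2 and 5 (−1.26 ± 0.20, edgeR adjusted p = 0.00020). MiR-99a-5p, the partner strand of miR-99a-3p, was higher in the first set (0.59 ± 0.20, edgeR adjusted p = 0.030), a call lost without KO-water 1 (0.43 ± 0.18, edgeR adjusted p = 0.078) or KO-water 4 (0.46 ± 0.19, edgeR adjusted p = 0.068). Oligodendrocyte miR-219a-5p was at 42.2 to 64.9 CPM in KO-water 3, 4 and 6 and at 701 to 875 CPM in KO-water 1, 2 and 5. Other marker sums also separated these sets without overlap. The microglia and immune cell microRNAs were at 6706 to 8959 CPM in KO-water 3, 4 and 6 and at 2368 to 3043 CPM in KO-water 1, 2 and 5. The 4 vessel microRNAs were at 22319 to 28026 CPM in KO-water 3, 4 and 6 and at 11290 to 15129 CPM in KO-water 1, 2 and 5. The red blood cell microRNAs were at 495 to 607 CPM in KO-water 3, 4 and 6 and at 1195 to 1568 CPM in KO-water 1, 2 and 5. The part of these markers in the differences was not tested.

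Ratios of arms within a library do not depend on the scaling of libraries, and 10 of them were compared by exact permutation tests over libraries, two-sided, adjusted over the 10 ratios of a comparison. The 5p to 3p ratio of the miR-99b hairpin ranged from 20.01 to 33.3 in WT-corticosterone, against 37.0 to 54.1 in WT-water. The groups did not overlap, with a log2 difference of −0.69 ± 0.12 (exact permutation p = 0.00058, the smallest this design allows; adjusted p = 0.0029). MiR-99b-3p itself averaged 32.3 ± 1.88 CPM in WT-corticosterone and 35.8 ± 5.12 CPM in WT-water (SD, n = 6 and 7). Its log2 fold change was −0.08 ± 0.14 (edgeR adjusted p = 0.65), against the −0.75 of the 5p arm.

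The same ratio was 20.1 to 24.1 in KO-exercise, against 41.4 to 54.0 in KO-water without KO-water 2, whose ratio was 11.1. The log2 difference was −0.72 ± 0.35 with all KO-water libraries (exact permutation p = 0.11) and −1.07 ± 0.08 without KO-water 2 (adjusted p = 0.040 by the same exact permutation test). KO-water 2 was singled out after seeing its value of this ratio, so the second difference is description only. In WT-exercise the ratio ran from 23.8 to 49.2, against 37.0 to 54.1 in WT-water, and the groups overlapped (−0.31 ± 0.23, exact permutation p = 0.15).

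Within the chromosome 17 cluster, miR-99b-5p over miR-125a-5p was 0.0509 to 0.145 in WT-corticosterone, against 0.170 to 0.313 in WT-water, without overlap (log2 difference −1.34 ± 0.27, exact permutation p = 0.00058, adjusted p = 0.0029). Their 3p arms went the same way: miR-99b-3p over miR-125a-3p was lower, with a log2 difference of −0.93 ± 0.23 (exact permutation p = 0.0029, adjusted p = 0.0097). In WT-exercise the 3p ratio differed from WT-water by −1.20 ± 0.42 (exact permutation p = 0.0063), which missed the threshold after adjustment (0.063). In KO-water, miR-99b-5p over miR-125a-5p was lower than in WT-water, with a log2 difference of −1.05 ± 0.34 (exact permutation p = 0.0017, adjusted p = 0.0087). The groups overlapped, at 0.0379 to 0.174 in KO-water. The lowest value was that of KO-water 2, in which miR-99b-5p was low. KO-water 1 and 5 were at 0.174 and 0.152, and KO-water 3, 4 and 6 at 0.0824 to 0.113.

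For the miR-99a hairpin printed above, miR-99a-5p over miR-99a-3p was 43.5, 44.8, 17.7, 39.6 and 32.6 in KO-exercise 1 to 5, against 49.0 to 363 in KO-water (median 130.1). The groups did not overlap, with a log2 difference of −1.95 ± 0.52 (exact permutation p = 0.0043, adjusted p = 0.032). The call was lost in 10 of the 11 comparisons with 1 library left out, over which the difference ran from −2.24 to −1.66. MiR-99a-5p over miR-125b-5p, the ratio of the abundant strands of the chromosome 16 cluster, averaged 0.139 in KO-exercise and 0.400 in KO-water (geometric means). Its log2 difference was −1.52 ± 0.37 (exact permutation p = 0.0065, adjusted p = 0.032), also lost in 10 of 11 such comparisons. With a KO-water library left out, 5 libraries stood on each side, and the exact permutation p cannot fall below 0.0079. A single ratio at that value cannot pass the adjustment over 10 ratios, so the losses of both ratios were in part set by the design. MiR-99a-5p over miR-99a-3p was 173 to 363 in KO-water 3, 4 and 6 and 49.0 to 87.6 in KO-water 1, 2 and 5, against 19.2 to 71.7 in WT-water. The geometric means of this ratio were 131 in KO-water and 44.3 in WT-water (log2 difference 1.57 ± 0.53, exact permutation p = 0.0093, adjusted p = 0.031), a call lost in 7 of 13 comparisons with 1 library left out.

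MiR-125b-5p over the sum of its 3p arms was higher in KO-water than in WT-water, at 131 to 248 in KO-water and 75.1 to 122 in WT-water, with no overlap (log2 difference 0.71 ± 0.19, exact permutation p = 0.00058, adjusted p = 0.0058). KO-water 1, 2 and 5 had the lower values, 131 to 155, and were also above every WT-water library. With KO-water 1, 2 and 5 alone, none of the 10 ratios passed. With 3 libraries against 7, a single ratio at the smallest possible p cannot pass the adjustment over 10 ratios, so no conclusion is drawn. MiR-125b-1-3p over miR-125b-2-3p, which sets the chromosome 9 gene against the chromosome 16 gene, lay between 0.151 and 0.492 over all 31 libraries. It was 0.363 to 0.492 in KO-water 3, 4 and 6, against 0.196 to 0.255 in KO-water 1, 2 and 5, and with 3 libraries on each side the exact permutation p cannot go below 0.10, the value reached.

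**Figure D5:**
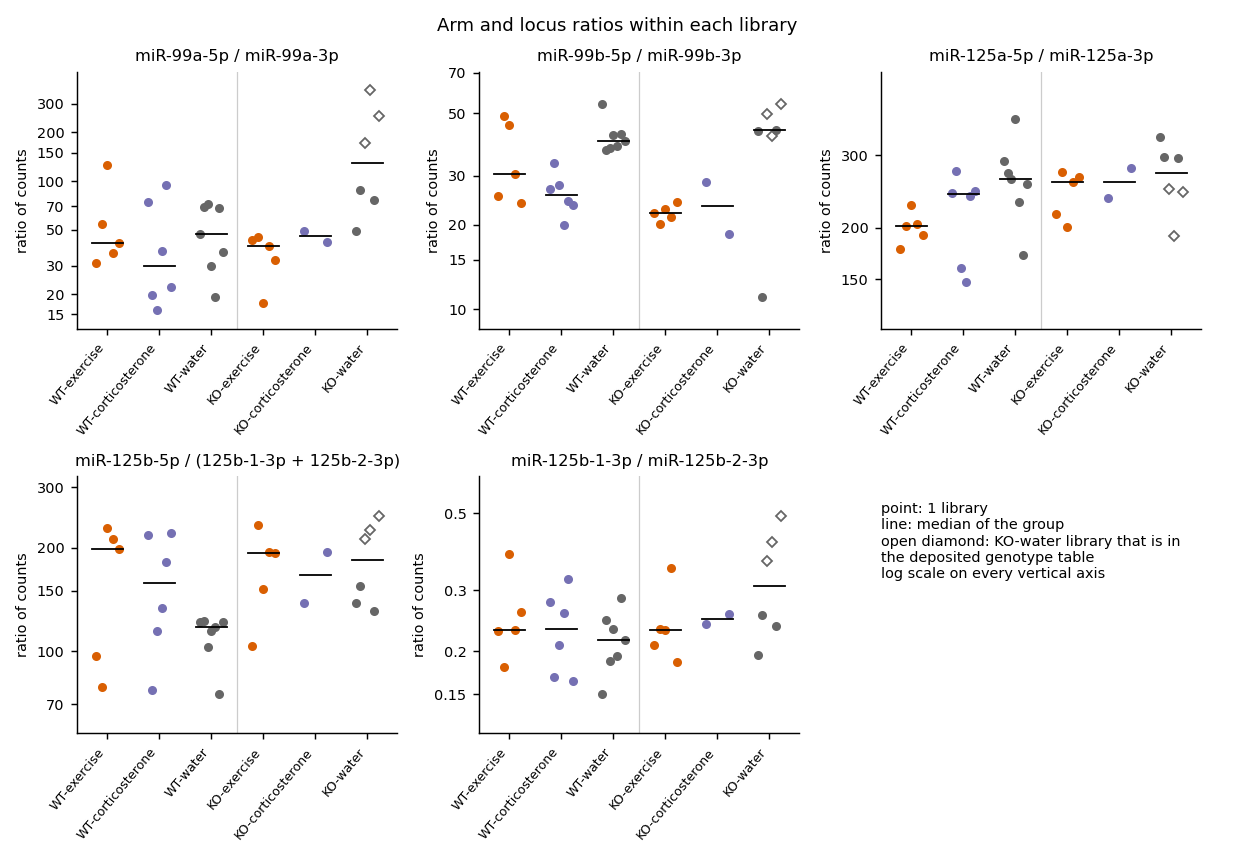
Ratios of counts within each library (points, log scale) by group, with the group median as a line; open diamonds are KO-water libraries 3, 4 and 6. The miR-99b 5p to 3p ratio of treated KO libraries lay at 18.5 to 28.4, below all KO-water libraries except KO-water 2 at 11.1.

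Other microRNAs of the 3 clusters are the let-7 strands, regulators of growth and differentiation whose 5p arms are close copies of each other. In WT-exercise against WT-water, let-7c-5p (0.98 ± 0.20), let-7a-5p (0.55 ± 0.19) and let-7e-5p (0.58 ± 0.15) were all called higher by edgeR. The 3p strands made in the clusters, let-7c-1-3p (−1.05 ± 0.27), let-7a-2-3p (−1.52 ± 0.44) and let-7e-3p (−0.76 ± 0.24), were all called lower. The other 3p strands, let-7c-2-3p (−0.18 ± 0.17) and let-7a-1-3p (−0.21 ± 0.16), come from gene copies elsewhere, are identical in sequence and did not pass. The counts were the same in WT-corticosterone, with 3 of 8 let-7 strands higher and 3 lower. Of all microRNAs tested, 19.9% were called higher and 12.7% lower in WT-exercise, and 24.9% and 17% in WT-corticosterone. Let-7a-2-3p had as few as 2 counts in a WT-exercise library. In KO-exercise 7 of the 8 were tested and none was called by edgeR, against 4.02% of all microRNAs, with 4 at an unadjusted p below 0.05. In KO-corticosterone none was called by edgeR, against 0.521% of all microRNAs, with 0 at an unadjusted p below 0.05. Within the chromosome 17 cluster of WT-corticosterone mice, let-7e-5p (0.56 ± 0.15) and miR-125a-5p were thus called higher and miR-99b-5p lower. The 5p strands of let-7a and let-7c are also made from genes outside these clusters, which the counts cannot separate.

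By seed, the miR-99/100 strands held 0.743% ± 0.328 of counts in WT-corticosterone and 1.38% ± 0.602 in WT-water (SD, n = 6 and 7). They held 0.683% ± 0.193 in KO-exercise and 1.86% ± 0.429 in KO-water (SD, n = 5 and 6). The miR-125 strands held 4.33% ± 1.45 in WT-corticosterone and 3.48% ± 0.559 in WT-water, and 4.70% ± 1.39 in KO-exercise and 4.77% ± 1.09 in KO-water. Among other microRNAs with the miR-125 seed, miR-351-5p averaged 23.5 CPM and was called in no comparison, miR-6367 had 4 counts in all, and miR-6394 had none. The miR-100-3p strand had 397 counts in all libraries together and was called in no comparison.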

How the data were processed

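The authors deposited 5 tables of whole-number counts over 1966 mature microRNAs, each for a pair of groups; repeated columns were identical and 0 columns of other samples were present. Subread, featureCounts, BWA, cutadapt 2.3 and limma 3.54.1 are named, without role or order, in the submitters' processing notes, with the build GRCm38 (mm10); how strand or multiple matches were handled no source used here says. Library preparation, per the labels' protocols, used the Ion Total RNA-Seq Kit v2 for an Ion Torrent S5 sequencer. KO-exercise 4 is a column of the deposited genotype table but is labelled exercise, and was used as such. All pairs of libraries of a group differed by more than sampling noise (lowest chi-square per degree of freedom 16.1).

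Counts were fitted per comparison with edgeR 4.0.16 (R 4.3.3): filterByExpr, TMM, robust glmQLFit and the quasi-likelihood F test, with Benjamini-Hochberg adjustment over all microRNAs tested and calls at an adjusted p below 0.05. The procedure was tested on simulated counts, drawn independently for each microRNA. These held neither the main axis of variation nor the split of KO-water, so that test says nothing about either. CPM are counts per 1000000 after TMM scaling over all 31 libraries. Ratios used a pseudocount of 0.5. Alternatives were DESeq2 1.42.0, its size factors, no scaling factors, no filter, a joint fit, replicate number, code letter or principal component terms, each library left out, and subsets of KO-water. The members and lists were chosen with earlier results of these data known. Named microRNAs were all 10 members and miR-100-3p, the cluster let-7 rows, rows sharing a 5p seed, miR-10a-5p and miR-10b-5p, and the 3 nearest patterns. MiR-10a-5p, a near relative in sequence, was called in no comparison, and miR-10b-5p was below the filter on low counts in all but the corticosterone interaction, where it was not called. Intervals and p-values cover the spread between these libraries only.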

Additional observations from a re-analysis of the deposited data

Results flagged for a closer look

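In 5 of 100 groups of 4 to 10 libraries checked, about the 1 in 20 that chance gives, the most extreme library lay far from the rest. MiR-99b-5p was at 309 CPM in KO-water 2, against 1291 to 1623 CPM in the other KO-water libraries. Its 5p to 3p ratio in KO-water 2 was 11.1, against 41.4 to 54.0 in the others. Both flags rest on the same low miR-99b-5p, so the groups checked are not independent of each other. The gap to the next library was 0.862 and 0.833 of the range, against a threshold of 0.625. For the other flags, given next, it was 0.649 to 0.672, against a threshold of 0.568. MiR-125a-3p was at 17.8 CPM in WT-water 4, against 26.8 to 32.7 CPM in the other WT-water libraries. The miR-99b 5p to 3p ratio was 54.1 in WT-water 1, against 37.0 to 42.2 in the others. MiR-125b-5p over its 3p arms was 75.1 in WT-water 6, against 103.1 to 122 in the others.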

How the results depend on the processing

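Counts of called arms that changed with the settings are given with the share of all microRNAs called in parentheses. In WT-exercise 2 of 10 arms were called (32.5%), but 4 without scaling factors (29.5%), 3 by DESeq2 (37.6%), 0 with a replicate block (6.87%), 0 within letter G (1.74%), 4 within H (37.9%), 4 with a within-group principal component (49.9%) and 1 with the axis score (4.88%). In WT-corticosterone 4 were called (41.9%), but 5 by DESeq2 (45.2%), 2 with the block (31.8%), 2 within G (25.2%), 5 with the principal component (51%) and 1 with the axis score (7.13%), where miR-125a-5p turned to −0.155; a joint fit also gave 4 (27.3%), with miR-99a-5p in place of miR-125a-5p. In KO-exercise 2 were called (4.02%), but 3 in the joint fit (6.38%, adding miR-99b-5p), 0 within G (0.557%), 0 within H (0.177%), 3 with the principal component (23.9%) and 6 with KO-water 3, 4 and 6 (32.8%). In KO-corticosterone 0 were called (0.521%), but 2 by DESeq2 (1.22%), 1 in the joint fit (1.28%), 1 with the block (13.5%), 2 with the principal component (4.34%), 2 with the axis score (5.03%), 4 with KO-water 3, 4 and 6 (19.2%), and 1 with KO-water 1, 2 and 5 (7.08%). Between KO-water and WT-water 0 were called (0%), but 1 with DESeq2 size factors (4.77%), 4 by DESeq2 (21.1%), 6 with the principal component (46.6%) and 7 with KO-water 3, 4 and 6 (60.9%). Between the sets of KO-water 7 were called (54.5%), but 2 in the joint fit (41.1%), and 6 each by DESeq2 (53%), without the filter (22.3%) and within G (48.6%), where miR-125b-1-3p was lost. The exercise interaction gave 4 with the principal component (28.7%) and 6 with KO-water 3, 4 and 6 (42.3%), and the corticosterone interaction 3 (16.2%) and 3 (34%). The cause was not tested.

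Of 10 ratios, 4 passed in WT-corticosterone, but 2 within G. In KO-exercise 2 passed, but 0 within G, 0 within H, 4 with KO-water 3, 4 and 6, and 0 with the others. Between KO-water and WT-water 3 passed, but 0 within G, 0 within H, 5 with KO-water 3, 4 and 6, and 0 with the others. Within letters the designs are small. Within H, with 2 libraries on each side, the exact permutation p cannot fall below 0.05, so the 0 there was fixed in advance. In the other subsets a single ratio at the smallest possible p could not pass the adjustment over 10 ratios.

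With 1 library left out, called arms ranged from 1 to 5 in WT-exercise (18.4% to 48.8% of all microRNAs), 3 to 5 in WT-corticosterone (31.3% to 52.4%), 2 to 3 in KO-exercise (2.42% to 5.58%), 0 to 5 between KO-water and WT-water (0% to 29.2%) and 5 to 7 between the KO-water sets (43.8% to 56%), and stayed at 0 elsewhere. Ratios that passed ranged from 0 to 2 in WT-exercise, 3 to 4 in WT-corticosterone, 0 to 2 in KO-exercise and 2 to 5 between KO-water and WT-water. In KO-exercise with a KO-water library left out, a single ratio at the smallest possible p could not pass the adjustment. Replicate numbers did not pair the libraries: 22 of 63 same-numbered pairs correlated above 0.1, with a median of −0.0251. Without scaling factors the median of all microRNAs between KO-water and WT-water lay at −0.219, against −0.084 with TMM. The lowest arms, with as few as 30 counts in a library, limit the precision of their ratios, and the 2 KO-corticosterone libraries limit that comparison.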
